A study of Mus musculus with 11 samples.

Results

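Esrrb, Tfcp2l1, Nr5a2, Nr0b1 and Tcl1 are 5 genes of the network that holds mouse embryonic stem (ES) cells in the naive state of pluripotency. They were chosen by name, with earlier results of these data known. All 5 were found among the 30244 gene names listed across the tables of the series. Transcription was measured in 11 samples to ask how soft gels and the junction protein plakoglobin, the product of Jup, bear on pluripotency. In bulk, 3 libraries of cells in agarose microgels were compared with 3 of cells on tissue-culture plastic, all labelled wild type, with the genotype Rex1GFPd2, and all kept in 2i/LIF. The 2i/LIF medium combines inhibitors of the kinases MEK and GSK3 with the cytokine LIF. These libraries were made with Smart-seq2, a full-length cDNA method, from about 1000 cells each. Single cells came from inDrop, in which cells are barcoded in droplets and each captured transcript carries a unique molecular identifier (UMI), with 5 libraries for 5 conditions. Wild-type cells of the genotype E14 gave 3 of them, a serum/LIF control on plastic, a 2i/LIF culture on plastic and a culture in agarose microgels with serum/LIF. The other 2 held lines with plakoglobin driven constitutively by the CAG promoter, labelled as high and low overexpression (genotypes PGHIGH and PGLOW), in serum/LIF on plastic. Their parent line is not named, and whether each is 1 clone is not stated. Each is referred to by its label, as JupHigh or JupLow, for a reason given with the single-cell values. LIF was present in every sample, and the labels name no deletion.

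Esrrb, an orphan receptor related to the oestrogen receptors, is a transcription factor that keeps naive ES cells self-renewing, and its gene is repressed by the WNT effector Tcf7l1 until GSK3 is inhibited. Tfcp2l1, a factor of the CP2 and Grainyhead family, acts beside it downstream of LIF and GSK3 inhibition. Nr5a2 is an orphan receptor that binds the same half-site as Esrrb, and Nr0b1 (Dax1) is a receptor without a DNA-binding domain that represses the activity of other factors, including Nr5a2. Tcl1 is a cofactor of the kinase AKT whose gene is a known target of the core factor Oct4 (Pou5f1).

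In GRCm38 with the GENCODE M21 annotation, all 5 are protein-coding genes. Esrrb lies on chromosome 12 from 86361117 to 86521628 on the plus strand, and Tcl1 on the same chromosome from 105216750 to 105222793 on the minus strand. Tfcp2l1 lies on chromosome 1 from 118627945 to 118685168 on the plus strand, and Nr5a2 from 136842571 to 136960448 on the minus strand of that chromosome. Nr0b1 lies on chromosome X from 86191764 to 86195947 on the plus strand. Tfcp2l1 was the only member whose span overlaps other annotated genes, a ribosomal RNA gene, a processed pseudogene and a small nuclear RNA gene. Tcl1 stands beside the Tcl1b copies of its own family, and whether any reads were shared with these copies was not tested.

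The sequences upstream of the starts are shown because members of the set are factors that read short motifs, and the 5 genes moved together between culture media. RefSeq promoter sequences of GRCm38.p6 matched all 5 genes, with 2 starts each for Esrrb and Nr5a2, and which start is used in these cells was not measured. The 4 windows below hold a searched motif. Each runs 5′ to 3′ on the strand of the gene and ends just before its RefSeq start, except that of Nr0b1, which ends 11 bases earlier to leave out bases that GENCODE counts as exon. Capitals mark the motif matches, and positions below are those of the first base relative to the RefSeq start.
Esrrb, chr12:86360867-86361116, plus strand: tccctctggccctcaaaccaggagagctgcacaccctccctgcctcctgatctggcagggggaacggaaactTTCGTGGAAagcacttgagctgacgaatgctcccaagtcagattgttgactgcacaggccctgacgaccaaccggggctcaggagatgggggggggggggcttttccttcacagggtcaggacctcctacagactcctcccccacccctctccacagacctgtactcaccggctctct
Tfcp2l1, chr1:118627695-118627944, plus strand: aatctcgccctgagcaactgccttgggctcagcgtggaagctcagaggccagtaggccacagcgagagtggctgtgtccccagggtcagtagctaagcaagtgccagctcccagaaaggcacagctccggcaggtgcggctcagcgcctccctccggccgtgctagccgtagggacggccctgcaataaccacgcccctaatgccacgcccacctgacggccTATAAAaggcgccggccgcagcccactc
Nr5a2, chr1:136960449-136960698, minus strand: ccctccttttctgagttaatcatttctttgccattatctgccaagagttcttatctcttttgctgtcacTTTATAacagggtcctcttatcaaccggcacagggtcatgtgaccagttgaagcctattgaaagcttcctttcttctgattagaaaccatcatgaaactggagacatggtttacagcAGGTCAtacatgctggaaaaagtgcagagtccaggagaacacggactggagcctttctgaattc
Nr0b1, chrX:86191525-86191763, plus strand: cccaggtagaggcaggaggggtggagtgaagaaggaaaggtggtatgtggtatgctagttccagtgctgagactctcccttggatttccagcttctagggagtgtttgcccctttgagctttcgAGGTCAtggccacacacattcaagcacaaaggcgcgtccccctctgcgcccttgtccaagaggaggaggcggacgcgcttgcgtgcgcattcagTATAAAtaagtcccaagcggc
The motifs, searched on both strands in the 250 bases before each start, were the nuclear receptor half-site AGGTCA, its extended form TCAAGGTCA, the paired CP2 motif, the STAT motif TTCNNNGAA, the TCF motif ATCAAAG and the TATA box TATAAA. The extended form contains the half-site, so a match of the former is also a match of the latter. The half-site stood at -64 from the start of Nr5a2 and at -126 from that of Nr0b1, and 14.0% of all 32851 RefSeq windows of this length hold it. The STAT motif stood at -178 in Esrrb, against 7.02% of all windows. A TATA box stood at -28 in Tfcp2l1, at -32 in Nr0b1 and, on the other strand, at -181 in Nr5a2, against 12.4% of all windows. No searched motif stood in the second windows of Esrrb and Nr5a2 or in that of Tcl1. The extended half-site, the paired CP2 motif and the TCF motif were in none of the members' windows, against 0.387%, 2.78% and 3.21% of all windows. A match is a description of the letters and was not tested as a site.

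The bulk libraries held 635840 to 2577524 recovered reads, and mitochondrial genes took 5.43% to 5.89% of the values in gel and 5.77% to 6.59% on plastic. Of 12588 listed genes, 7866 were tested with limma on log2(value + 0.5), and 2899 of them (36.9%) passed at an adjusted p of 0.05, 18.2% higher and 18.6% lower in gel. Jup, the gene named in the study's title, had values of 103, 90.9 and 96.2 in gel and 9.56, 9.39 and 30.4 on plastic. The ES cell markers Pou5f1, Sox2, Nanog, Zfp42, Sall4 and Utf1 were all present, 0 of 8 endoderm and 0 of 7 fibroblast markers were listed, and 2 of 7 trophoblast markers were listed. Of 7 markers of 2-cell-like cells 2 were listed, with summed values of 0 to 111 in gel and 1.25 to 106 on plastic. Since this is bulk RNA, fewer cells with a transcript and less transcript per cell cannot be told apart. The labels do not say whether replicates were separate cultures, so the p-values measure the spread between these libraries.

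Among the members, 3 of 5 rose in gel, 0 fell, and Nr0b1 and Tcl1 did not pass the test. The share of all tested genes called higher was 18.2%. The same 3 members had every gel library above every plastic library, as did 24.4% of all tested genes. Esrrb rose by the largest amount, followed by Nr5a2 and Tfcp2l1. The median change of all tested genes was -0.02 on the log2 scale, against 1.55 for Esrrb, which stood at the 98.5th percentile of all changes, 1.08 for Nr5a2 (95.2nd) and 0.54 for Tfcp2l1 (81.9th).

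**Figure D1:**
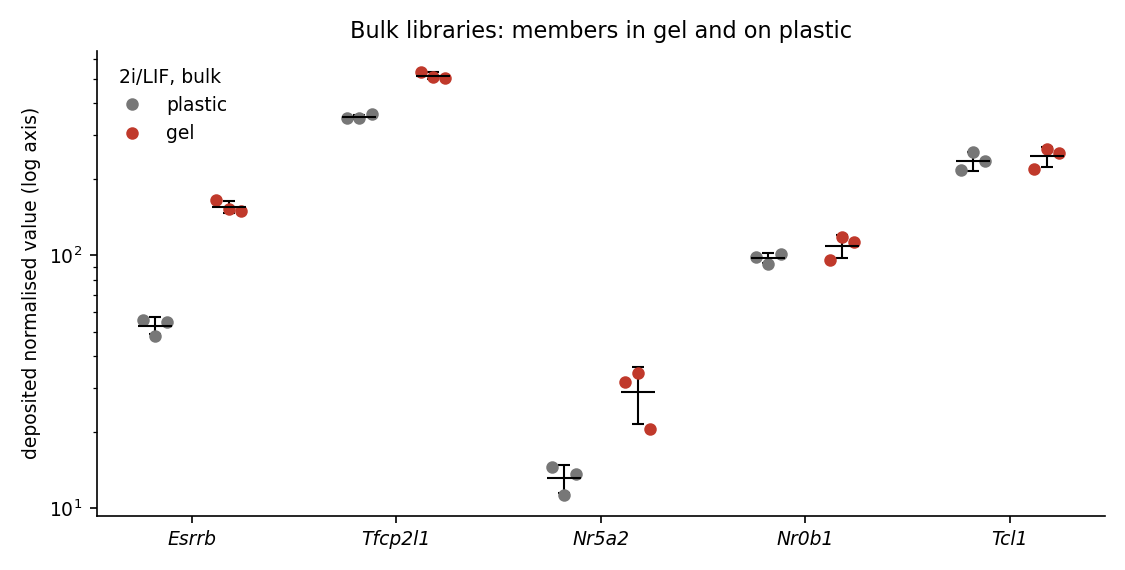
Deposited normalised value (log axis) of each member in the 3 gel and 3 plastic libraries, with points for libraries and bars for the mean ± SD. The gel points lie above every plastic point for Esrrb, Tfcp2l1 and Nr5a2, and the groups overlap for Nr0b1 and Tcl1.

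Esrrb had normalised values of 166, 152 and 150 in gel replicates 1 to 3 and of 55.7, 48.1 and 54.6 on plastic. All gel libraries lay above all plastic libraries, with a gap far wider than the spread inside either group. The means were 156 ± 8.68 (SD, n = 3) and 52.8 ± 4.10 (SD, n = 3), a log2 change of 1.55 (SE 0.14, limma adjusted p = 5.03e-07). Behind these values stood 147, 124 and 109 reads in gel and 134, 123 and 36 on plastic.

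Tfcp2l1, the member with the most reads, had values of 532, 508 and 502 in gel and 350, 350 and 361 on plastic. The groups did not overlap, and both were tight. The means of 514 ± 15.7 and 354 ± 6.59 (SD, n = 3 each) differed by 0.54 on the log2 scale (SE 0.096, limma adjusted p = 0.000326).

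Nr5a2 had the fewest reads of the members in bulk, with values of 31.6, 34.4 and 20.6 in gel and 14.5, 11.3 and 13.7 on plastic. The lowest gel library, replicate 3, stood apart from the other two but still above every plastic library. The log2 change was 1.08 (SE 0.28, limma adjusted p = 0.00559), from 15 to 28 reads in gel and 9 to 35 on plastic.

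Nr0b1, the corepressor-like receptor, had values of 95.9, 118 and 113 in gel and 98.5, 92.7 and 102 on plastic. The first gel library lay inside the plastic range, and the log2 change of 0.15 (95% interval -0.12 to 0.42) did not pass the test (limma adjusted p = 0.412). Tcl1 had values of 220, 264 and 254 in gel and 217, 257 and 235 on plastic, so that the groups overlapped along most of their range. Its log2 change was 0.06 (95% interval -0.17 to 0.28, limma adjusted p = 0.732). Both intervals leave out changes as large as that of Esrrb.

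The log2 change of Esrrb was larger than that of Tfcp2l1, and the values can be set against each other within a library. The ratio of the Esrrb value to the Tfcp2l1 value was 0.312, 0.300 and 0.299 in gel and 0.159, 0.138 and 0.151 on plastic, so that every gel library lay above every plastic one. The ratios were chosen after the changes were seen and are a description. The ratio of Esrrb to Nr0b1 was likewise 1.29 to 1.73 in gel against 0.519 to 0.565 on plastic. The ratio to Nr5a2 was 4.43 to 7.27 in gel and 3.83 to 4.24 on plastic, a much narrower gap.

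Across 7687 tested genes, the log2 change rose with the GC content of the longest transcript (Spearman 0.300 across genes, which are not independent). Esrrb at 54.9% GC stood above 84.0% of these genes, and Nr0b1, which did not pass, at 55.2% stood above 85.3%. Tfcp2l1 (47.0%) and Nr5a2 (43.2%), which rose, stood above 41.0% and 20.4%. The part of GC content in these results was not tested.

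The partners of the members did not move as a block. Of the 12 other naive genes, all tested, 6 rose in gel and 3 fell, with a median log2 change of 0.29. Of all tested genes 18.2% rose and 18.6% fell, the shares against which this count and those of the lists that follow are to be read, and 3 of 12 falling is near the latter. The rises were led by Klf2 (2.08, adjusted p = 1.01e-06) and Klf4 (1.84, adjusted p = 1.81e-06), Krüppel-like factors that act in parallel with Esrrb. Dppa3 (-0.68, adjusted p = 0.00145) and Nanog (-0.34, adjusted p = 0.00741), which lies upstream of Esrrb, fell, also by limma. Among the 3 core genes Sox2 (1.51) and Pou5f1 (1.31) rose and Sall4 (-0.80) fell.

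Inputs to the circuit moved in part. Of 10 genes of the WNT and GSK3 input, 7 were tested, 4 rose and 1 fell. Tcf7l1, the repressor of Esrrb, rose by 1.60 (adjusted p = 0.0013), Tcf7 by 1.38 (adjusted p = 0.00104), and Gsk3b, a target of the 2i inhibitors, fell by 1.33 (limma adjusted p = 1.89e-06). Of the 5 genes of the LIF input, 2 rose, Stat3 by 0.88 and its feedback inhibitor Socs3 by 2.32. The Socs3 value rests on 56 reads over the 6 libraries.

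Relatives of the members were mostly too low to test. Of 25 other nuclear receptors, 14 were listed and 4 tested. Nr4a1 (1.34, adjusted p = 0.00463) and Nr1h2 (1.17, adjusted p = 0.000676) rose by limma, and 0 fell. Of 5 CP2 and Grainyhead genes 2 were tested and 0 passed, with values of 42.1 and 37.7 for Ubp1 in gel and on plastic. Of 11 receptor coregulators 6 were tested and 3 rose, led by Kdm1a (1.07), a histone demethylase, and 0 fell. Of 14 genes of the TCL1 and AKT list 5 were tested, and Pdpk1, the kinase that activates AKT, rose by 0.77 (adjusted p = 0.0103). The 5 Tcl1b copies were not listed.

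The bulk genes with the nearest pattern differed from member to member, by the root mean square difference of centred log2 values over the 6 libraries. They included Supt6 (0.083) and Leng8 (0.11) for Esrrb and were Ddx21, Gm13577 and Tbl1xr1 for Tfcp2l1 (0.034 to 0.035) and Smad7, Khsrp and Gm7993 for Nr5a2 (0.070 to 0.13). For Nr0b1 they were Adi1, Gm10075 and Cdca7, and for Tcl1 they were Mdh1, Commd1 and Rsl24d1. No member was among the nearest 3 of another member in bulk.

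The single-cell libraries held 725 cells of the serum/LIF control on plastic, 2889 in 2i/LIF, 112 in gel, 1200 labelled JupLow and 2153 labelled JupHigh, each cell with at least 1000 UMIs, and the median was 1731.5 to 2465 UMIs per cell. Libraries shared 0 cell barcodes. The gel table breaks off inside its last row and its sorted barcodes end early in the alphabet, so it holds part of that library. Mitochondrial genes took 9.82% of UMIs in 2i/LIF and 14.8% for the library labelled JupHigh, with the others between. With 1 library a condition there was no test, and every interval below covers counting error only. In the wild-type serum/LIF table some genes that overlap others are far lower than elsewhere, with Sox2 at 0 UMIs and Ctnnb1 at 9.42 CPM (UMIs per 1000000 UMIs) against 395 to 576 in the other libraries. Of the members, Tfcp2l1 alone overlaps annotated genes. Jup itself stood at 36.7 CPM in the serum/LIF control, 37.9 for the library labelled JupLow and 47.8 for that labelled JupHigh. The intervals of every Jup ratio compared here include no change. Whether transcripts of the introduced gene are counted under Jup is not known, so these values do not show whether plakoglobin is overexpressed.

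**Figure D2:**
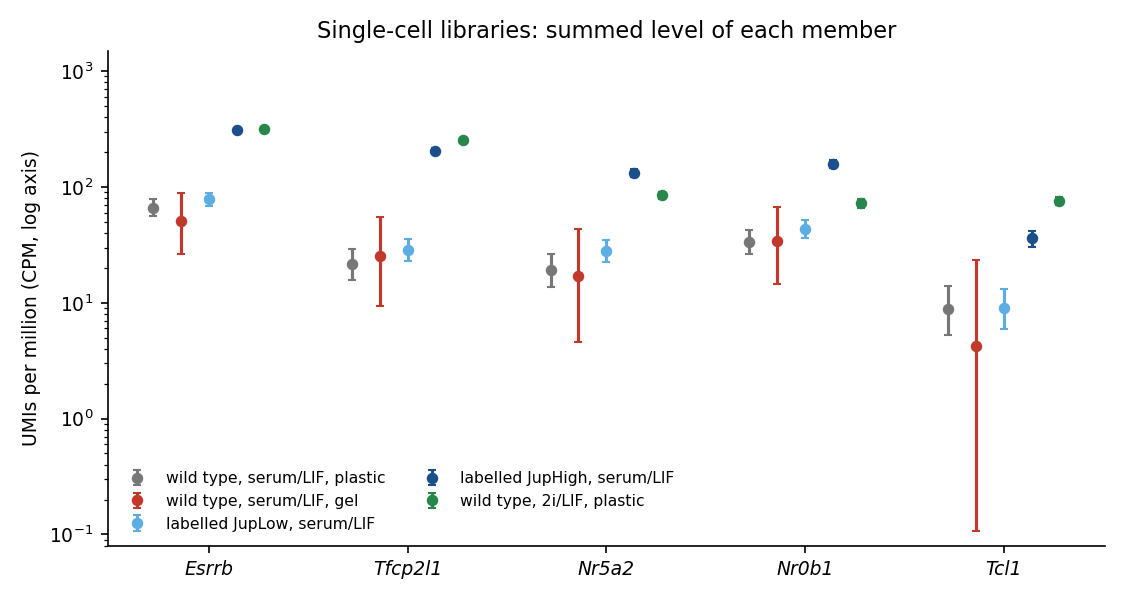
Level of each member in CPM (log axis) summed over the cells of each single-cell library, with exact 95% Poisson intervals. For every member the 2i/LIF point and that of the library labelled JupHigh stand above the other 3, whose intervals overlap.

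Esrrb was highest in 2i/LIF at 318 CPM (95% interval 306 to 331, 2636 UMIs) and in the library labelled JupHigh at 308 CPM (291 to 325). Its other levels were 78.2 CPM (68.3 to 89.1) for the library labelled JupLow, 66.4 CPM (55.6 to 78.6) for the serum/LIF control and 50.8 CPM (26.3 to 88.7, 12 UMIs) for gel. The top 2 could not be told apart, nor could neighbours among the lower 3.

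Tfcp2l1 followed the same order at the top, with 256 CPM in 2i/LIF (245 to 267) and 205 CPM in the library labelled JupHigh (191 to 219). Its levels were 28.8 CPM in the library labelled JupLow, 25.4 CPM in gel and 21.8 CPM in the serum/LIF control. The step between the top 2 exceeded counting error, and those among the lower 3 did not.

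Nr5a2 and Nr0b1 had another order, with the library labelled JupHigh first. Nr5a2 stood there at 132 CPM (122 to 144), in 2i/LIF at 84.5 CPM (78.4 to 91.0), in the library labelled JupLow at 28.1 CPM, in the serum/LIF control at 19.3 CPM and in gel at 16.9 CPM. Nr0b1 stood at 158 CPM (146 to 170) in the library labelled JupHigh, 72.1 CPM (66.4 to 78.1) in 2i/LIF, 43.4 CPM in that labelled JupLow, 33.9 CPM in gel and 33.7 CPM in the serum/LIF control. For both genes the first 2 steps, from the library labelled JupHigh to 2i/LIF and from there to that labelled JupLow, exceeded counting error, and the 2 steps below them did not.

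Tcl1 had the lowest level of the 5 members in every library but 2i/LIF, where Nr0b1 was lower, with 75.8 CPM in 2i/LIF (70.0 to 82.0), 36.0 CPM in the library labelled JupHigh (30.5 to 42.1) and 9.03 CPM (5.90 to 13.2) and 8.92 CPM (5.29 to 14.1) for the library labelled JupLow and the serum/LIF control, in that order. In gel it was seen as 1 UMI, below the 3 UMIs taken as the lowest usable count.

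All 5 members were higher in 2i/LIF than in serum/LIF. In wild-type cells 5 of 5 were at least 2-fold higher, against 11.6% of genes that reached 20 CPM in either library (8.78% of those that overlap no other gene). With 10 CPM added to both levels Nr0b1 was at 0.91, under 2-fold. The log2 ratio was 3.55 for Tfcp2l1 (95% interval 3.12 to 4.02), 3.09 for Tcl1 (2.41 to 3.85), 2.26 for Esrrb (2.01 to 2.52), 2.13 for Nr5a2 (1.66 to 2.63) and 1.10 for Nr0b1 (0.73 to 1.48). Nr0b1 had the smallest ratio, and its interval lay below those of the other 4. The median over all these genes was -0.02.

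The library labelled JupHigh, which was kept in serum/LIF, also held all 5 members at higher levels than wild type in the same medium. Again 5 of 5 were at least 2-fold higher, against 7.94% of genes (4.64% of those without overlap). The log2 ratios were 3.23 for Tfcp2l1 (2.79 to 3.70), 2.77 for Nr5a2 (2.31 to 3.28), 2.23 for Nr0b1 (1.87 to 2.61), 2.21 for Esrrb (1.95 to 2.48) and 2.01 for Tcl1 (1.30 to 2.80). Against the library labelled JupLow, of the same medium and promoter, 5 of 5 were at least 2-fold higher, against 2.63% of genes higher and 8.44% lower. These ratios were 2.83 for Tfcp2l1 (2.50 to 3.17), 2.23 for Nr5a2 (1.89 to 2.59), 1.99 for Tcl1 (1.39 to 2.65), 1.98 for Esrrb (1.77 to 2.19) and 1.86 for Nr0b1 (1.58 to 2.15). This comparison does not use the serum/LIF control, which 4 of the 6 comparisons share. The medians over all genes were -0.17 against the control and -0.13 against the library labelled JupLow.

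**Figure D3:**
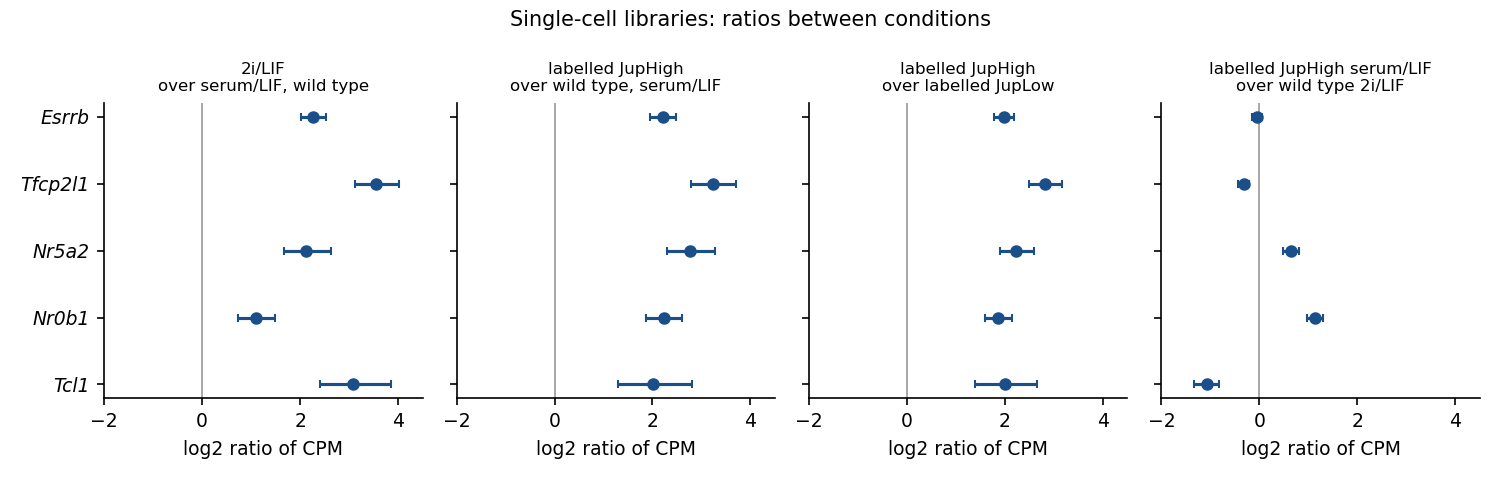
Log2 ratio of CPM of each member in 4 comparisons of single-cell libraries, with exact 95% conditional binomial intervals and a line at 0. All points lie right of 0 in the first 3 panels, and in the last panel Nr5a2 and Nr0b1 lie right of it and Tfcp2l1 and Tcl1 left.

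The library labelled JupLow was compared with the serum/LIF control, and for cells from 1000 UMIs the interval of every member included no change. Of the 4 members at 20 CPM or more, 0 were past 2-fold, against 6.02% of genes higher and 7.67% lower (1.52% and 3.32% of those without overlap). The log2 ratios were 0.24 for Esrrb (-0.08 to 0.55), 0.40 for Tfcp2l1 (-0.14 to 0.96), 0.54 for Nr5a2 (-0.03 to 1.13), 0.37 for Nr0b1 (-0.07 to 0.81) and 0.02 for Tcl1 (-0.90 to 0.97). With cells from 2000 UMIs the intervals of 4 members lay above no change, at 0.36 for Esrrb (0.0080 to 0.72), 0.79 for Tfcp2l1 (0.11 to 1.497), 0.77 for Nr5a2 (0.13 to 1.43) and 0.51 for Nr0b1 (0.0097 to 1.03), and with every barcode so did those of Nr0b1 and Tcl1 (0.54, 0.0060 to 1.09). The intervals for cells from 1000 UMIs reach up to 1.13, for Nr5a2, and leave out the size seen in the library labelled JupHigh for every member.

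Gel culture in serum/LIF could not be resolved at this depth. Of the 3 members at 20 CPM or more, 0 were past 2-fold, against 9.06% of genes higher and 13.4% lower (5.43% and 8.61% of those without overlap). The log2 ratio of gel over plastic was -0.39 for Esrrb (-1.37 to 0.47), 0.22 for Tfcp2l1 (-1.30 to 1.46), -0.19 for Nr5a2 (-2.14 to 1.28), 0.01 for Nr0b1 (-1.26 to 1.07) and -1.08 for Tcl1 (-6.46 to 1.59). For Esrrb the upper end, 0.47, lies below the bulk change of 1.55 in 2i/LIF, a comparison across media, lines and assays that was not tested. The upper end for Nr5a2 lies above its bulk change. The Nr5a2 ratio rests on 4 gel UMIs and turned to 0.62 (-0.33 to 1.47) with cells from 500 UMIs, 0.11 (-2.24 to 1.79) from 2000 UMIs and 0.92 (0.18 to 1.60) with every barcode, the last an interval above no change.

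Set side by side, the library labelled JupHigh in serum/LIF and wild type in 2i/LIF held the members in different proportions. Nr0b1 was 1.13 higher on the log2 scale in the former (0.97 to 1.29) and Nr5a2 0.65 higher (0.48 to 0.81). Tcl1 was lower, at -1.08 (-1.34 to -0.82), and Tfcp2l1 slightly lower, at -0.32 (-0.44 to -0.21). Esrrb differed by -0.05 (-0.15 to 0.05), an interval that spans no change. By the 2-fold rule 1 member was higher and 1 lower, against 3.64% and 6.48% of genes. The Tcl1 ratio was just short of 2-fold with every barcode (-0.99), with TMM (-0.95) or median-of-ratios factors (-0.96) and with 10 CPM added (-0.90). The median over all genes in this comparison was -0.13, so each ratio reads 0.13 higher relative to it.

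Markers of other cells differed between these libraries. The 8 endoderm markers summed to 257 CPM in the serum/LIF control, 84.7 in gel, 33.7 and 18.6 in the libraries labelled JupLow and JupHigh and 3.98 in 2i/LIF, with 0, 2, 0, 0 and 1 of them at 0 UMIs. The 7 fibroblast markers summed to 39.1 CPM in the serum/LIF control and 27.4 CPM in the library labelled JupLow, and to 2.90 to 4.87 CPM in the other 3 libraries, and 2 to 6 of them had no UMI. The 7 trophoblast markers lay between 32.7 and 66.7 CPM, with 1 to 4 at 0. The 7 markers of 2-cell-like cells summed to 0.604 to 30.7 CPM with 2 to 5 at 0, except in the library labelled JupHigh, at 87.7 CPM with 0 at 0. An endoderm marker was seen in 15.7% of wild-type serum/LIF cells. Without the cells that held one, a step added after the data were seen, the 2i/LIF ratios were 2.20 for Esrrb, 3.70 for Tfcp2l1, 1.97 for Nr5a2, 1.01 for Nr0b1 and 3.09 for Tcl1. The same step left the ratios of JupHigh over wild type between 2.00 and 3.38. The part of the other markers was not tested.

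Each member was seen in a minority of cells in every library. After each cell was thinned to 1000 UMIs, an Esrrb UMI was found in 24.5% of cells in 2i/LIF (exact binomial 95% interval 23.0 to 26.2) and 24.6% for the library labelled JupHigh (22.8 to 26.4). The share was 6.90% in the serum/LIF control (5.16 to 8.99), 6.42% for the library labelled JupLow (5.10 to 7.95) and 5.36% for gel (1.99 to 11.3). Without thinning an Esrrb UMI was found in 1444 of the 2889 cells in 2i/LIF and in 40.9%, 14.6%, 12% and 9.82% of the others, in the same order.

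For Tfcp2l1 the thinned shares were 21.9% in 2i/LIF, 17.5% in the library labelled JupHigh and 2.62% to 4.46% in the other 3. For Nr5a2 they were 6.68% in 2i/LIF, 12.3% in the library labelled JupHigh and 1.79% to 2.21% elsewhere. For Nr0b1 they were 7.20%, 14.6% and 1.79% to 3.59%, and for Tcl1 7.75%, 3.62% and 0.690% to 0.917%, in the same order. The shares without thinning reached 46.3%, 22.3%, 24.9% and 18.1% for these 4 genes in their highest libraries. The order of the shares was that of the levels where the levels differed beyond counting error.

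A background reading was taken from 50 wild-type serum/LIF cells with 3 or more endoderm marker UMIs, taken as endoderm-like by these markers alone. An Esrrb UMI was found in 6.0% of them (1.25 to 16.5) and in 6.87% of the 611 cells without any such UMI (5.0 to 9.18), at medians of 2416.5 and 2369 UMIs. Tfcp2l1 was found in 4.0% and 2.29%. For both genes the intervals of the 50 cells and of the 611 cells overlapped. Whether the 50 cells transcribe these genes themselves was not measured. The part of free RNA in the low serum/LIF shares was therefore not tested. Nr5a2, Nr0b1 and Tcl1 were seen in 0 of the 50 cells, which allows up to 7.11% by the exact interval and so spans their shares in the other cells too. Zfp42 (Rex1), another naive marker, was found in 6.0% (1.25 to 16.5) and 13.4% (10.8 to 16.4), with overlapping intervals. Barcodes under 500 UMIs may be free RNA or shallow cells. In them Esrrb stood at 71.0 CPM in the wild-type serum/LIF library, against 66.4 CPM in its cells. It stood at 402 CPM (352 to 457) in the library labelled JupHigh, above the 308 CPM (291 to 325) of its cells. In that labelled JupLow it stood at 74.5 CPM, near the 78.2 CPM of its cells. The 2i/LIF library held 1 such barcode. The library labelled JupLow held 2 cells with 3 or more endoderm UMIs, too few for a background share.

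**Figure D4:**
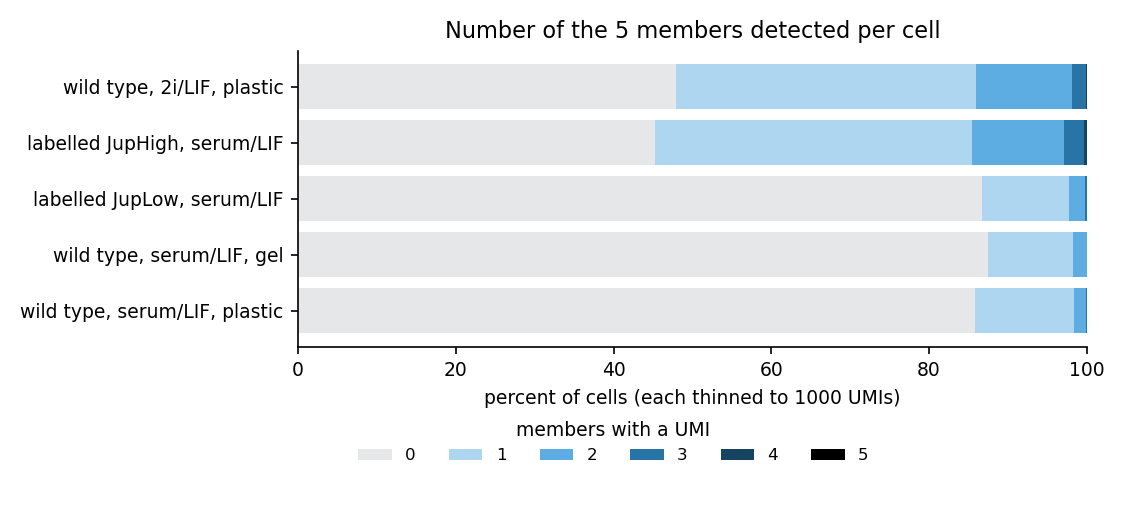
Percent of cells of each single-cell library, thinned to 1000 UMIs a cell, in which 0 to 5 of the members were seen. More than 1 member was seen in 14.0% of cells in 2i/LIF and 14.5% for the library labelled JupHigh, against 1.66% to 2.25% in the other 3.

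Counted together, at least 1 of the 5 members was seen in 52.1% of cells in 2i/LIF (50.3 to 53.9) and 54.8% for the library labelled JupHigh (52.7 to 56.9). The share was 14.2% in the serum/LIF control, 13.3% in the library labelled JupLow and 12.5% in gel. At least 2 members were seen in 14.0% and 14.5% of the cells in the first pair and in 1.66%, 2.25% and 1.79% in the others. All 5 were seen together in 0 cells of any library, and 4 in 8 cells labelled JupHigh and 2 cells in 2i/LIF.

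Cells with an Esrrb UMI were set against the rest of the same library. In the library labelled JupLow the 77 such cells also held an Nr0b1 UMI in 14.3% of cases (7.35 to 24.1), against 2.76% (1.88 to 3.90) of the other 1123 cells. Zfp42 was seen in 42.9% against 15.1%, and Pou3f1 (Oct6), a factor of the formative state, in 2.60% against 16%. Dnmt3b, a further gene of the formative and primed states, hardly differed, at 39.0% against 40.3%. Of other naive genes, Nanog (15.6% against 6.77%), Klf4 (6.49% against 4.01%) and Tbx3 (1.30% against 0.445%) had overlapping intervals. The housekeeping gene Actb was seen in 83.1% against 79.3%, with overlapping intervals. For Tfcp2l1 (6.49% against 2.67%), Nr5a2 (5.19% against 1.69%) and Tcl1 (3.90% against 0.712%) the intervals overlapped.

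In the library labelled JupHigh 529 cells with an Esrrb UMI were set against the other 1624. Nr0b1 was seen in 15.5% against 14.3%, Nr5a2 in 12.1% against 12.3% and Tfcp2l1 in 19.7% against 16.8%. Pou3f1 (0.567% against 0.739%), Nanog (36.5% against 32.6%) and Tbx3 (3.59% against 4.31%) had overlapping intervals. Zfp42 was seen in 57.1% against 43.8% and Tcl1 in 6.05% against 2.83%, but Actb also stood at 88.5% against 70.1%, so the 2 sets of cells differed in content beyond these genes. In 2i/LIF the 709 cells with an Esrrb UMI held Tfcp2l1 in 25.1% of cases against 20.8%, and Actb in 87.9% against 71.3%. In the serum/LIF control there were 50 such cells, with Zfp42 in 26.0% (14.63 to 40.3) against 12% (9.64 to 14.69), intervals that just overlapped, and Nr0b1 in 6.0% against 3.41%. In gel there were 6 such cells, too few to describe.

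**Figure D5:**
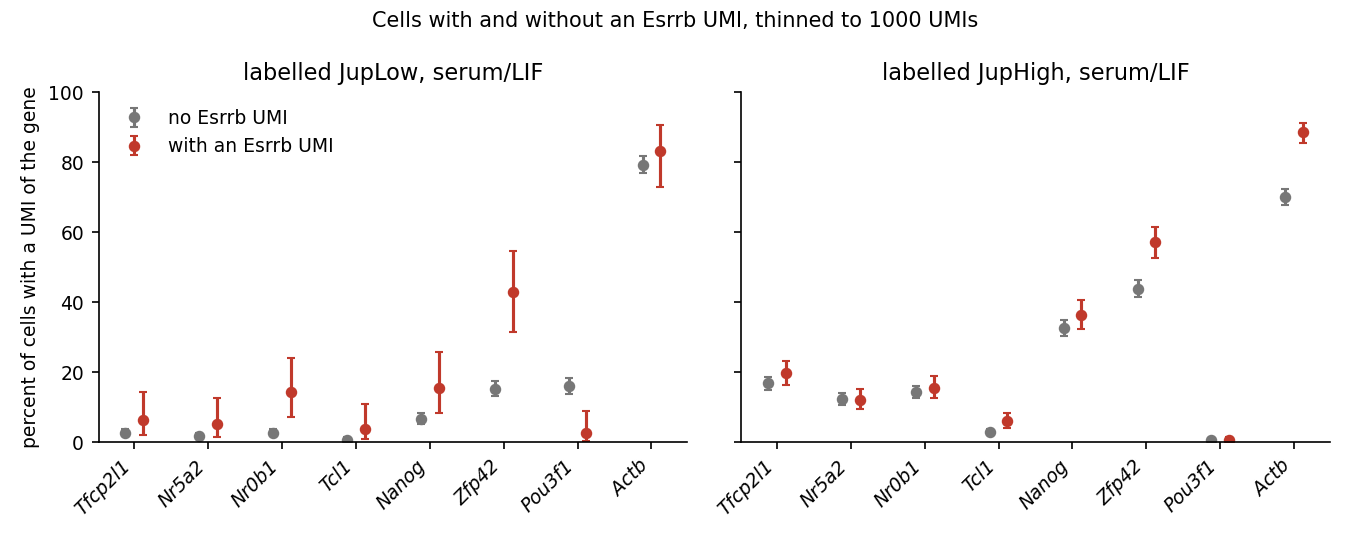
Percent of cells with a UMI of each gene, among cells with and without an Esrrb UMI, in the libraries labelled JupLow and JupHigh, thinned to 1000 UMIs a cell, with exact 95% binomial intervals. In the former Nr0b1 and Zfp42 lie higher and Pou3f1 lower beside an Esrrb UMI while Actb hardly moves. In the latter Zfp42, Tcl1 and Actb lie higher, and Nr0b1 and Pou3f1 hardly differ.

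The genes nearest to each member over the 5 single-cell libraries were taken from 2437 genes at 100 CPM or more in their highest library, by the root mean square difference of centred log2(CPM + 10). Esrrb was nearest to Klf4 (0.18), to Tdh, the threonine dehydrogenase of ES cells (0.23), and to Nr5a2 (0.24). Nr5a2 was nearest to Cobl (0.15), Klf4 (0.19) and Tdh (0.22). Tfcp2l1 was nearest to Ly75 (0.19), Jam2 (0.36) and Esrrb (0.36), Nr0b1 to Cep55, Hsd17b14 and Epop (0.25 to 0.29), and Tcl1 to Slc4a5, Alpl and Notum (0.19 to 0.21), the last a secreted WNT inhibitor. Klf4 stood at 238 CPM in 2i/LIF, 303 in the library labelled JupHigh and 50.8 to 66.9 in the other 3, close to the steps of Esrrb. Without the wild-type serum/LIF library Klf4 and Tdh stayed nearest to Esrrb, Ly75 to Tfcp2l1 and Cobl to Nr5a2, while Nr5a2 was replaced by Kat6b among the 3 genes nearest to Esrrb, and Manba took first place for Nr0b1 and Notum for Tcl1. These are descriptions over 5 libraries.

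Between wild-type 2i/LIF and serum/LIF, 8 of 11 other naive genes at 20 CPM or more were at least 2-fold higher, against 11.6% of genes, and 0 lower. Their median was 1.80, and Nanog (2.70), Dppa3 (2.60, 1.80 to 3.52) and Klf2 (2.47) led them. Of 7 formative and primed genes 0 were higher and 6 lower, against 15.3% of genes lower, with Pou3f1 at -6.98 (-8.06 to -6.08). The other nuclear receptors split, with 2 of 8 higher, Nr2c2 (1.61) and Rara (1.54), and 3 lower, against 11.6% and 15.3% of genes. In the library labelled JupHigh over the control 2 of 8 were higher, Nr1d2 (1.21) and Nr2c2 (1.18), and 1 lower. The shares of all genes in that comparison were 7.94% higher and 15.0% lower. Nr2c2 was also higher in the library labelled JupLow over that control (1.75). The control is the table in which some genes are far lower than elsewhere, and whether Nr2c2 is one of them was not tested.

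The same lists are given next between the libraries labelled JupHigh and JupLow, which avoids the wild-type serum/LIF table. Of all genes 2.63% were at least 2-fold higher and 8.44% lower in the former, the shares against which the counts are to be read. Of the 12 naive genes, 11 were at 20 CPM or more, 7 were at least 2-fold higher and 0 lower in the library labelled JupHigh, with a median log2 ratio of 1.16. Klf4 (2.33, 2.10 to 2.57), Nanog (2.28, 2.10 to 2.47), Tbx3 (2.04) and Zfp42 (1.63) led them. Of the 3 core genes 0 were past 2-fold. Of 7 formative and primed genes at 20 CPM or more 4 were lower and 0 higher, with Pou3f1 at -5.08 (-5.69 to -4.52) and Otx2 at -2.03. Of 9 such genes of the WNT and GSK3 input 1 was higher, the feedback target Axin2 at 1.45 (0.91 to 2.02). In the same list 1 was lower, near the share of all genes, and of the 5 of the LIF input 0 were past 2-fold.

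Relatives of the members are given between the same 2 libraries, where 2.63% of all genes were at least 2-fold higher and 8.44% lower. Of 9 other nuclear receptors at 20 CPM or more, 0 were 2-fold higher and 2 were lower, with Nr3c1, the glucocorticoid receptor, at -1.54 and a median of -0.52 for the list. Of 8 receptor coregulators 0 were higher and 1 lower, and of the 2 CP2 and Grainyhead genes 0 were past 2-fold, with Ubp1 at 64.6 CPM in the library labelled JupLow and 68.9 CPM in that labelled JupHigh. Against the serum/LIF control Ubp1, at 16.4 CPM there, was higher in 2i/LIF (1.90, 1.39 to 2.45). It was also higher in the library labelled JupHigh (2.07) and in that labelled JupLow (1.98). In gel its interval included no change (1.05, -0.27 to 2.19). Ubp1 was lowest in the control table, where some genes are far lower than elsewhere, and whether it is one of them was not tested. Grhl2 was lower in 2i/LIF than in the control (-4.76). Of 6 genes of the TCL1 and AKT list 0 were higher and 1, Akt1, was lower at -1.75 (-2.08 to -1.41). Akt1 also stood at 14.2 CPM in 2i/LIF, where Tcl1 was highest, against 75.8 CPM in the serum/LIF control. Among the Tcl1b copies 4 of 5 had no UMI in any library, and Tcl1b4 reached 1.39 CPM in the library labelled JupHigh.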

How the data were processed

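Bulk RNA was measured in 6 libraries and single cells in 5 libraries of mouse ES cells. The submitters' processing notes name FastQC, STAR, featureCounts, DESeq2 and Scanpy and the builds mm10 and GRCm38, with no versions or roles. Deposited bulk values are a signal scaled by the authors, reads over 1 factor per library, as the values show: 100% were whole multiples of 1 read within 0.01 reads, and 19 rows without a usable gene name were left out. The single-cell values are UMI counts that the authors deposited without normalization. Strand use is not given in the sources used here. Names of the plastic columns in bulk hold a gel mark beside the plastic one and were read as plastic, since they alone hold the latter.

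Gel and plastic were compared by limma-trend (limma 3.58.1, R 4.3.3) on log2(value + 0.5), which understates changes of low genes. Genes passed edgeR's expression filter on recovered reads, and p-values were adjusted by Benjamini-Hochberg over all 7866 tested genes at 0.05. edgeR 4.0.16 and DESeq2 1.42.0 on recovered reads, other filters, pseudocounts and scalings, and each library left out were alternatives. Replicates of a group differed by more than sampling noise (chi-square per degree of freedom 1.66 to 2.36). Cells had at least 1000 UMIs, unnamed columns (0.00509% to 0.499% of UMIs) and barcodes that begin and end in 8 G were left out, and no doublet caller was run; 0 to 35 cells of a library lay above 3 times its median. CPM is UMIs divided by the library total and scaled to 1000000. Single-cell intervals (95%) are exact, floors are 3 counts, and both cover counting error only. Bulk intervals (95%) are a normal approximation from the limma SE and measure the spread between libraries.

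The members and gene lists were chosen with earlier results of these data known. Named genes are the members, the 3 nearest genes of each in either assay, and up to 4 of each list with the largest levels or changes; markers of cell types and Actb serve as checks. Some results that this rule names are not reported here. The bulk test was also run on simulated data with changes larger than those of the members, and smaller changes were not tried.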

Additional observations from a re-analysis of the deposited data

Results flagged for a closer look

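The direction between gel and plastic was opposite in the 2 assays for Esrrb, and for Nr5a2 under some cell filters. In bulk in 2i/LIF every gel library was above every plastic library, with log2 changes of 1.55 and 1.08, whereas in single cells in serum/LIF the 1 gel library was below the 1 plastic library, with log2 ratios of -0.39 for Esrrb and -0.19 for Nr5a2. The Nr5a2 ratio, from 4 gel UMIs, was 0.92 (0.18 to 1.60) with every barcode, the direction of the bulk change. The difference between the assays was not tested, the single-cell intervals for cells from 1000 UMIs include no change, and the assays differ in medium, line and method, which cannot be told apart.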

How the results depend on the processing

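In bulk, Esrrb, Tfcp2l1 and Nr5a2 kept their rise in gel and passed the test under every alternative that gave a value, and Nr0b1 and Tcl1 passed under none. Nr5a2 had no value when at least 10 reads were required. The number of genes called was 2899, between 2182 with DESeq2 and 3148 with edgeR. With each library left out it was 2343 to 2824, and the log2 change was 1.49 to 1.59 for Esrrb, 0.51 to 0.56 for Tfcp2l1, 0.93 to 1.30 for Nr5a2, 0.091 to 0.24 for Nr0b1 and -0.0036 to 0.13 for Tcl1, which was lowest without plastic replicate 1. Same-numbered libraries did not deviate together (correlations -0.052, 0.016 and 0.024), which cannot show whether they were prepared together. The numbers are those of the titles, and the description of the second plastic library gives another number. A fit with the replicate number as a block called 2981 genes and gave the same calls for the members.

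In single cells, 254 recomputed ratios stayed within the counting interval and 15 moved out of it. Adding 10 CPM gave 3.06 for Tfcp2l1 and 2.18 for Tcl1 in 2i/LIF over serum/LIF, 2.75 for Tfcp2l1, 2.28 for Nr5a2 and 1.28 for Tcl1 in JupHigh over wild type, and 2.47 and 1.27 for Tfcp2l1 and Tcl1 in JupHigh over JupLow. For JupHigh over 2i/LIF, Esrrb changed sign, to 0.047 with cells from 500 UMIs, 0.087 with every barcode, 0.078 with TMM and 0.072 with median-of-ratios factors. In 1 of 7 alternatives with an interval, the interval of Esrrb lay above no change. As deposited, 2i/LIF held 1 barcode under 500 UMIs and the library labelled JupHigh 1343, so every barcode is not a like set in both. Tfcp2l1 moved to -0.16 with every barcode and to -0.20 with either factor, and Nr5a2 to 0.82 with cells weighted equally. For JupLow over wild type the interval left out no change in 1 to 3 of 7 alternatives per member, always above it, and for 4 members at once with cells from 2000 UMIs. Ratios near 0 changed sign elsewhere too, for gel over plastic in Nr5a2 (0.62 from 500 UMIs, 0.11 from 2000 UMIs and 0.92 with every barcode) and Nr0b1 (-0.45 without barcodes above 3 times the median and -0.83 with cells weighted equally), and for JupLow over wild type in Tcl1 (-0.13 and -0.42 under the latter pair). The gel Tcl1 ratio had no value from 2000 UMIs, where it had 0 UMIs. Of the 50 recomputed shares of cells, 41 moved, all of them upward except that of Tcl1 in gel, which was 0 when cells were thinned to 2000 UMIs. Both alternatives keep more UMIs a cell, and without thinning a share cannot fall, so these moves do not check the shares.

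The single-cell differences rest on 1 library each, the gel library on 112 cells, and the bulk Nr5a2 value on 9 to 35 reads a library. Sampling of cultures, and the lines behind the labels, cannot be judged from these data.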
